A study of Mus musculus with 14 samples.

Results

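Expression of 10 genes of the blood vessel wall and its main growth factor was described in gastrocnemius, a calf muscle, of 14 mice that carried pancreatic tumours. The genes were taken by symbol from 19505 measured genes: Pecam1, Cdh5, Kdr, Flt1, Tek, Tie1, Vwf and Aplnr as markers of endothelial cells, and Vegfa and Vegfb as growth factors that muscle fibres make. The rule that picks them uses no expression value. Of the 14 arrays, 7 came from mice fed HMB (β-hydroxy-β-methylbutyrate, a breakdown product of leucine sold to maintain muscle) mixed into the AIN-93G diet, and 7 from control mice fed AIN-93G alone. Both groups carried subcutaneous tumours of Panc02, a mouse pancreatic cancer cell line, and the supplement was started before the tumour cells were injected. The study used male C57BL/6 mice, and their age at tissue collection is not stated in those sources that were used here. The treatment text of the labels also names an antibody against PD1 without saying whether these mice received it, and the extraction text speaks of tumour while the tissue field names gastrocnemius. The diet is thus the only difference between the groups that the labels give. Separate animals are implied by the numbered titles alone, so the p-values measure only the spread between these samples, which may be technical.

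Endothelial cells line every vessel, and in skeletal muscle most of them form the capillaries that run along the fibres. Muscle fibres release Vegfa, which acts through the receptor Kdr on endothelial cells to drive vessel growth and permeability, while Flt1 binds Vegfa and Vegfb and serves largely as a decoy that limits Kdr signalling. The angiopoietin receptor Tek and its partner Tie1 keep mature vessels quiescent. Pecam1 and Cdh5 hold endothelial cells together at their junctions, Vwf is the clotting factor stored in endothelial granules, and Aplnr is the receptor for the peptide apelin, found on sprouting and venous endothelium.

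Values are given in log2 units as deposited, and group values as mean ± SD with n = 7 arrays per group. Brightness differs between probesets for reasons other than abundance, so no gene was set against another by level. As a background, the 95th percentile of the intron control probesets lay between 10.53 and 10.87 on the 14 arrays, and 22.1% to 24.5% of genes exceeded it. Pecam1, Cdh5, Flt1, Vegfa and Vegfb exceeded it on all 14 arrays, Kdr on 13 and Tek on 7 (4 HMB and 3 control arrays). Tie1, Vwf and Aplnr exceeded it on 0 arrays, so 5 of the 8 endothelial markers were seen above background on at least 7 arrays. Of 12 skeletal muscle markers, 11 exceeded it on at least 1 array, with Acta1, skeletal muscle actin, at a mean of 19.07 in HMB muscle and 18.97 in control muscle. Control 7 had the lowest median correlation with the other arrays (0.960, against 0.977 to 0.986 for the rest). Its mean over 14 genes of B and T cells was 10.53, whereas this mean ran from 3.66 to 4.32 in HMB muscle and its next highest control value was 4.18. In whole muscle, fewer endothelial cells and less RNA per endothelial cell cannot be told apart.

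No difference between HMB and control muscle passed the test in any of the 10 genes. The number with an adjusted p under 0.05 was 0 of 10, by limma with Benjamini-Hochberg adjustment over all genes, beside 0% of all 19505 genes. At an unadjusted p under 0.05 the number was also 0 of 10, beside 4.54% of all genes. The adjusted p-values ran from 0.990 to 0.999. The HMB and control ranges overlapped for all 10 genes (0.0974% of all genes had ranges that did not overlap). The mean was lower in HMB muscle for 4 of the 10 genes, beside 48.3% of all genes, and the median difference was 0.01 over the 10 genes and 0.01 over all genes. The median size of the difference, sign aside, was 0.11 for the 10 genes and 0.15 for all genes.

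**Figure D1:**
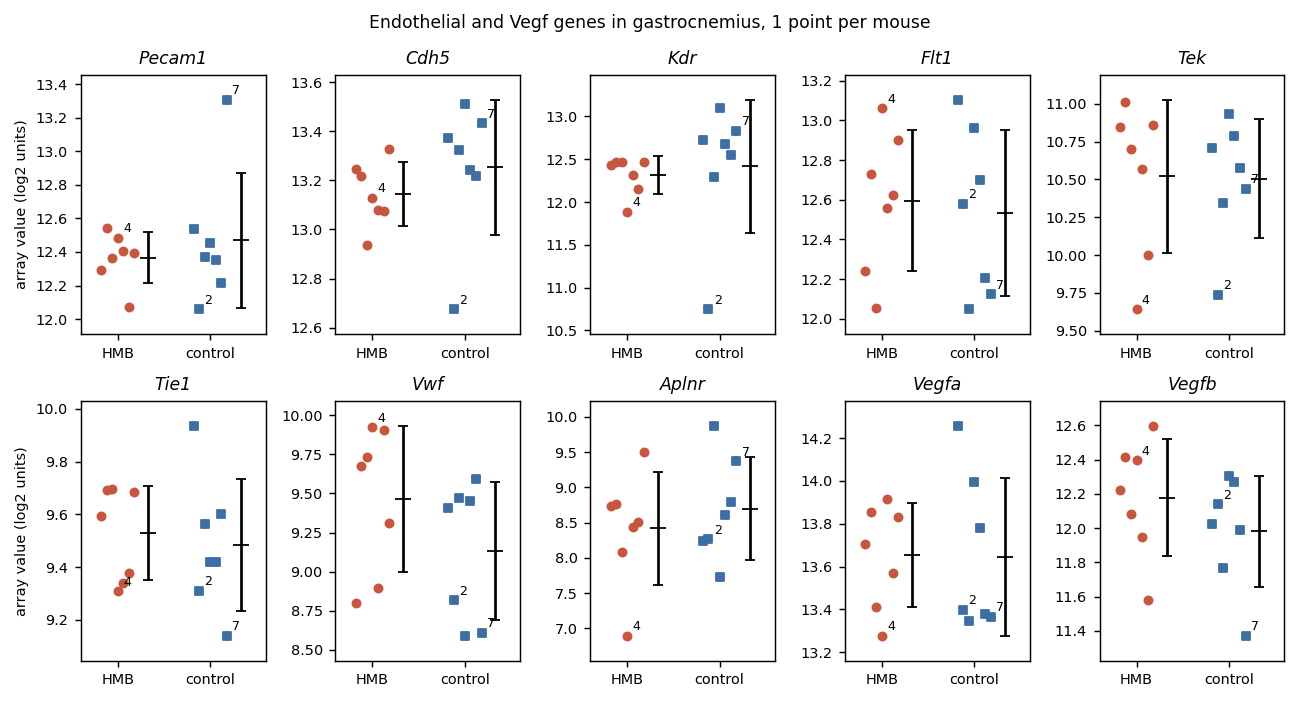
Level of each of the 10 genes (log2 units, vertical axis) on every array, HMB left of control, 1 point per mouse, with bars for the mean and SD (n = 7). The HMB and control points overlap in every panel, control 2 lies lowest for Kdr (10.75) and control 7 highest for Pecam1 (13.31).

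Among the junction genes, Pecam1 ran from 12.07 to 12.54 in HMB muscle, with a median of 12.39, and from 12.06 to 13.31 in control muscle, with a median of 12.37. The mean was 12.37 ± 0.15 in HMB muscle and 12.47 ± 0.40 in control muscle, a difference of -0.10 with a 95% interval of -0.46 to 0.26. The upper end of the control range was control 7 alone, since the other 13 arrays reached 12.54 at most. Pecam1 is also carried by leukocytes and platelets, and control 7 is the array with the B and T cell genes described above; the part of those cells in its Pecam1 value was not tested. Without control 7 the Pecam1 difference was 0.04. Cdh5, VE-cadherin, ran from 12.94 to 13.33 in HMB muscle (median 13.13) and from 12.67 to 13.51 in control muscle (median 13.32). The mean was 13.14 ± 0.13 in HMB muscle and 13.25 ± 0.28 in control muscle, a difference of -0.11 (95% interval -0.40 to 0.18). Control 2 was lowest, and the other control arrays ran from 13.22 to 13.51. HMB 3 (12.94), HMB 4 (13.13), HMB 5 (13.08) and HMB 6 (13.07) lay below those controls. Of the HMB arrays, 6 of 7 were below the control mean. Without control 2 the Cdh5 difference was -0.21 (95% interval -0.44 to 0.03, unadjusted p = 0.084 and adjusted p = 0.91 by limma). Of the 6 genes above background on at least 13 arrays, Cdh5 varied least within the groups (SD 0.22). Of all 4549 bright genes, those with a mean level above the mean background percentile, 58.8% varied more. These bright genes were not matched to Cdh5 by level.

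Kdr, the signalling receptor for Vegfa, ran from 11.89 to 12.47 in HMB muscle, with a median of 12.43. In control muscle it ran from 10.75 to 13.10, with a median of 12.68. The HMB arrays lay inside the control range, the mean being 12.31 ± 0.22 in HMB muscle and 12.42 ± 0.78 in control muscle, and the difference -0.11 (95% interval -0.72 to 0.50). The SD within groups was 0.57, and 4.68% of the 4549 bright genes varied more. Control 2 stood apart at 10.75, and the next lowest control array read 12.29. Control 2 also had the lowest mean over slow fibre genes, 6.79 (8.46 to 15.12 in HMB muscle, up to 13.65 in control muscle), and the lowest mean over fast fibre genes, 17.45 (17.87 to 18.21 in HMB muscle, up to 18.19 in control muscle). The part of fibre makeup in its Kdr value was not tested. Without control 2 the Kdr difference was -0.39 (95% interval -0.71 to -0.06, unadjusted p = 0.024 and adjusted p = 0.91 by limma), still short of the threshold.

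Flt1, the decoy receptor, ran from 12.05 to 13.06 in HMB muscle (median 12.62) and from 12.05 to 13.10 in control muscle (median 12.58). The ranges nearly coincided, with means of 12.60 ± 0.35 in HMB muscle and 12.53 ± 0.42 in control muscle and a difference of 0.06 (95% interval -0.37 to 0.50). Control 2, lowest for Kdr, was at 12.58 for Flt1, the control median, so the Vegfa receptors were not low together on that array.

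Tek, the angiopoietin receptor, ran from 9.64 to 11.01 in HMB muscle (median 10.70) and from 9.74 to 10.93 in control muscle (median 10.57). The difference was 0.02 (95% interval -0.48 to 0.51), with means of 10.52 ± 0.51 in HMB muscle and 10.50 ± 0.39 in control muscle. HMB 4 and control 2 were the lowest arrays of their groups. Tie1, its partner, stayed below the background percentile everywhere, at 9.31 to 9.70 in HMB muscle (median 9.59) and 9.14 to 9.93 in control muscle (median 9.42). Its means were 9.53 ± 0.18 in HMB muscle and 9.48 ± 0.25 in control muscle, a difference of 0.04 (95% interval -0.24 to 0.33).

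Vwf, the clotting factor, showed the largest difference of the 10 genes, though within the spread between mice. It ran from 8.80 to 9.92 in HMB muscle (median 9.67) and from 8.59 to 9.59 in control muscle (median 9.40), with means of 9.46 ± 0.47 in HMB muscle and 9.13 ± 0.44 in control muscle. The difference was 0.33 (95% interval -0.17 to 0.83, unadjusted p = 0.18 and adjusted p = 0.990 by limma), and 5 of 7 HMB arrays were above the control mean. Aplnr, the apelin receptor, ran from 6.90 to 9.50 in HMB muscle (median 8.51) and from 7.73 to 9.87 in control muscle (median 8.61). Its means were 8.42 ± 0.80 in HMB muscle and 8.70 ± 0.73 in control muscle, a difference of -0.28 (95% interval -1.08 to 0.52). Neither Vwf nor Aplnr exceeded the background percentile on any array, so changes in both are measured near background. The lowest Aplnr value, 6.90, was that of HMB 4, and the highest, 9.87, that of control 3.

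Of the growth factors, Vegfa ran from 13.28 to 13.92 in HMB muscle (median 13.71) and from 13.35 to 14.26 in control muscle (median 13.40). The means were 13.65 ± 0.24 in HMB muscle and 13.65 ± 0.37 in control muscle, a difference of 0.01 (95% interval -0.36 to 0.37), the smallest of the 10. Controls fell into 4 arrays between 13.35 and 13.40 and 3 between 13.78 and 14.26, while the HMB arrays were spread across that gap. Vegfb, which in mouse muscle is known for its tie to fatty acid uptake, ran from 11.58 to 12.60 in HMB muscle (median 12.22) and from 11.37 to 12.31 in control muscle (median 12.02). Its means were 12.18 ± 0.34 in HMB muscle and 11.98 ± 0.32 in control muscle, a difference of 0.20 (95% interval -0.19 to 0.58, adjusted p = 0.990 by limma). The lowest Vegfb array was control 7, and the highest was HMB 7.

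**Figure D2:**
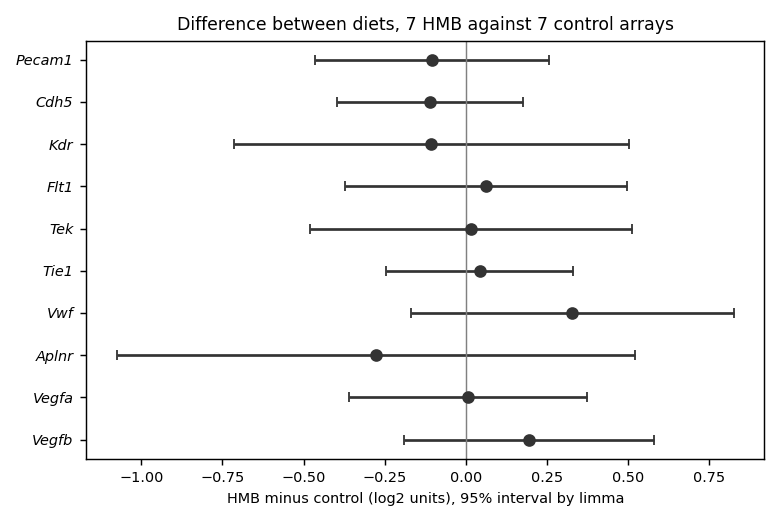
HMB minus control for each of the 10 genes (log2 units, horizontal axis), with the 95% interval from limma. All 10 intervals include 0, from the narrow one of Cdh5 (-0.40 to 0.18) to the wide one of Aplnr (-1.08 to 0.52).

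The mean of the 8 endothelial genes was taken on each array, although Tie1, Vwf and Aplnr never exceeded background. Whether this mean tracks vessel content was not tested. The mean hardly differed between the diets. It was 11.04 ± 0.18 in HMB muscle and 11.06 ± 0.24 in control muscle, a difference of -0.02, given as a description without a test. It ran from 10.79 to 11.31 in HMB muscle and from 10.52 to 11.25 in control muscle, with control 2 lowest and HMB 7 highest.

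The 10 genes were next compared with each other from mouse to mouse, over 45 pairs and 14 arrays, with a permutation test of 100000 resamples per pair. Most pairs were weakly related, with a median r of 0.17 over all pairs and 0.16 over the 28 pairs of endothelial genes, of which 18 were positive. A pair passed the adjusted threshold in 2 of 45 cases by Pearson's r and in 0 of 45 by Spearman's rho (7 and 8 of 45 at unadjusted p). Both were pairs with Kdr. The arrays share their normalisation, and single arrays weighed heavily, as described for each pair.

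Cdh5 and Kdr had r = 0.855 (permutation p = 0.00029, adjusted p = 0.013) and rho = 0.741 (permutation p = 0.0036, adjusted p = 0.11). Leaving out the 2 arrays farthest from the median of Cdh5, control 2 and HMB 3, gave r = 0.820, while leaving out control 2 and control 4, farthest in Kdr, gave 0.549 (permutation p = 0.063). Within HMB arrays r was 0.216 and within control arrays 0.963 (exact permutation p = 0.619 in HMB and 0.00714 in control, n = 7, adjusted p = 0.823 and 0.107). Leaving out single arrays gave r between 0.684, without control 2, and 0.934, without HMB 3. The adjusted threshold was missed without control 2 (adjusted p = 0.20) and without control 4 (r = 0.828, adjusted p = 0.075). The difference in r between the diets was not tested.

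Kdr and Tek, receptors for Vegfa and for angiopoietins, had r = 0.756 (permutation p = 0.00128, adjusted p = 0.029) and rho = 0.662 (permutation p = 0.0115, adjusted p = 0.17). Within HMB muscle r was 0.973 (exact permutation p = 0.00139, adjusted p = 0.0625, n = 7) and rho 0.964 (exact permutation p = 0.0028). Within control muscle r was 0.933 (exact permutation p = 0.00675, adjusted p = 0.107, n = 7) and rho 0.750 (exact permutation p = 0.066). Neither r passed the adjusted threshold within its diet. Over the pooled arrays, leaving out control 2 and control 4, farthest in Kdr, gave r = 0.697 (permutation p = 0.0129), while leaving out control 2 and HMB 4, farthest in Tek, gave r = 0.500 (permutation p = 0.100). Leaving out single arrays gave r between 0.704, without control 2, and 0.792, without control 7. The adjusted threshold was missed without control 2 (adjusted p = 0.20), control 3 (0.052), control 4 (0.075) and HMB 6 (0.10). Without control 2 alone, 0 of 45 pairs passed, Cdh5 with Kdr standing at r = 0.684 and Kdr with Tek at 0.704.

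Flt1 and Vegfa, decoy receptor and ligand, had a pooled r of 0.594 (permutation p = 0.0268, adjusted p = 0.29; rho = 0.530, permutation p = 0.054, adjusted p = 0.27), which did not pass. Within control muscle both genes put the 7 arrays in the same order (rho = 1), with r = 0.927 and an exact permutation p of 0.000198, the smallest that 7 arrays allow (adjusted p = 0.00893). Within HMB muscle r was 0.010 (exact permutation p = 0.983, n = 7), where HMB 4 had the highest Flt1 value, 13.06, and the lowest Vegfa value, 13.28. Leaving out single arrays gave a pooled r between 0.475, without control 1 (adjusted permutation p = 0.42), and 0.848, without HMB 4 (adjusted permutation p = 0.0088). HMB 4 also had the highest slow fibre mean of all arrays (15.12) and the lowest skeletal muscle mean (16.33), and the part of its makeup in these values was not tested. Over the 45 pairs, 0 passed the adjusted threshold within HMB muscle and 1 within control muscle (7 in HMB and 6 in control at unadjusted exact permutation p). Tek with Vegfa (r = 0.631, adjusted p = 0.24) and Flt1 with Aplnr (r = -0.528, adjusted p = 0.29) did not pass.

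**Figure D3:**
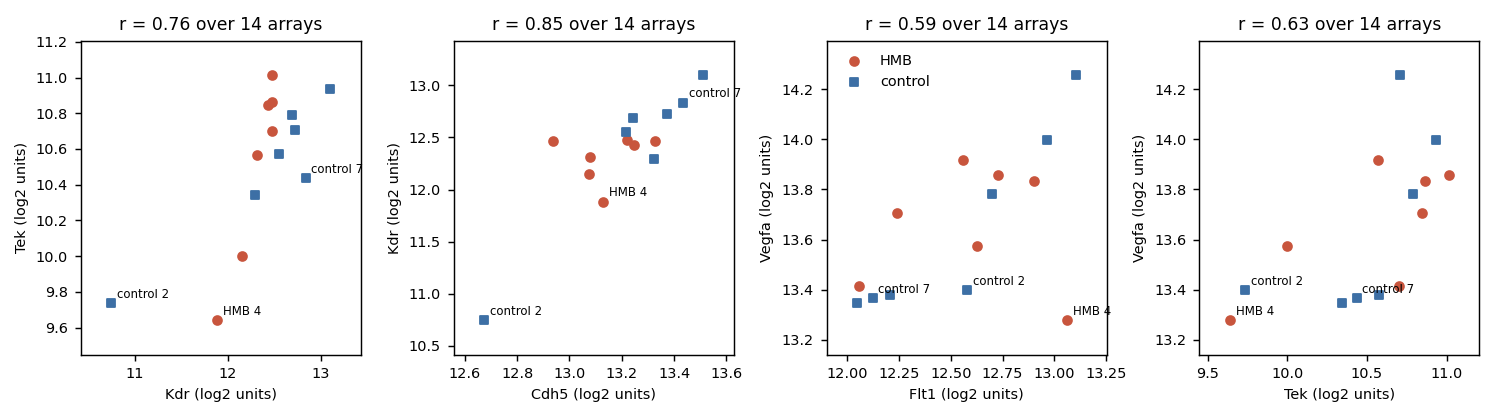
Tek against Kdr, Kdr against Cdh5, Vegfa against Flt1 and Vegfa against Tek, from left to right (log2 units on both axes), 1 point per array, coloured by diet, with the pooled r above each panel. Control 2 sits apart at the low end of Kdr (10.75), and HMB 4 leaves the line that the control arrays follow for Flt1 and Vegfa.

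**Figure D4:**
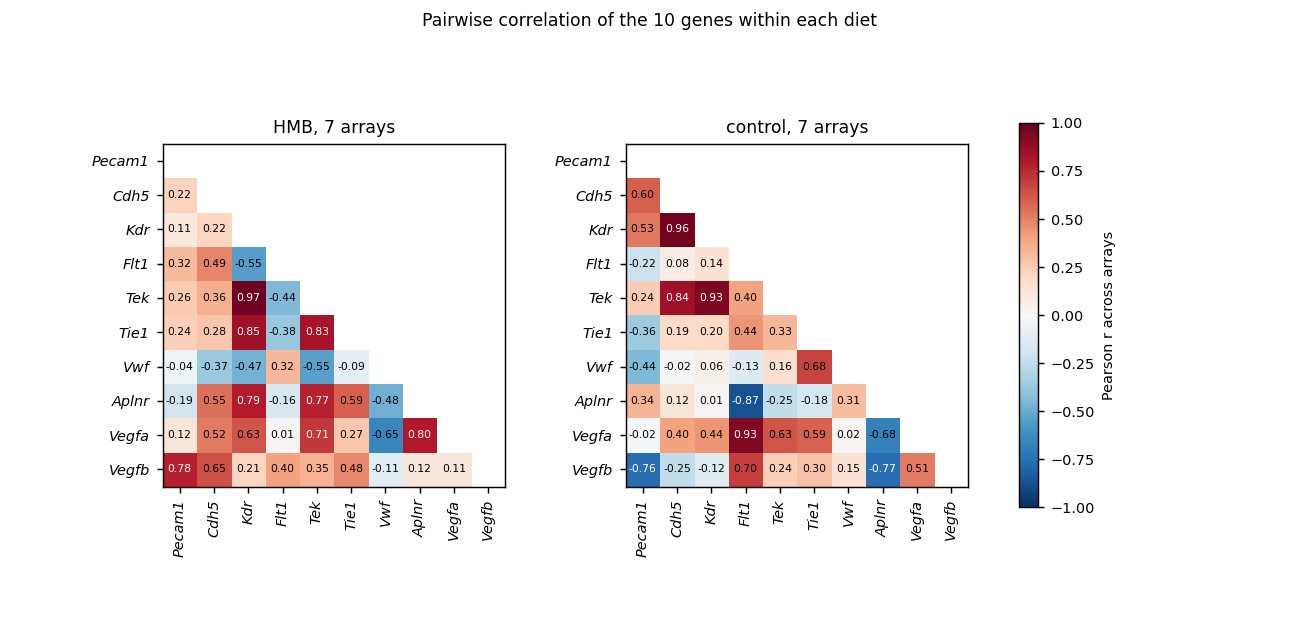
Pearson's r for each of the 45 pairs among the 10 genes, within the 7 HMB arrays on the left and within the 7 control arrays on the right, on a colour scale of -1 to 1. Kdr with Tek has a high r in both (0.973 in HMB, 0.933 in control), though neither passed the adjusted threshold. Flt1 with Vegfa has a high r in control muscle alone (0.010 in HMB, 0.927 in control). The difference between the diets was not tested.

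Stretches of 250 bases upstream of a transcript start were read from RefSeq (build GRCm38.p6), on the strand of the gene, for Kdr, Flt1, Tek, Tie1, Vegfa and Vegfb. The stretches of Kdr and Flt1 lie wholly, and that of Tek for 203 of its bases, inside the span that RefSeq gives the gene, which begins further upstream. Those of Tie1, Vegfb and the first of the Vegfa starts lie outside the span and end just before its first base, and these 3 are shown, the growth factors because they are the ligands of the receptors described above and Tie1 because it held the most ETS cores. Capitals mark GGAA or TTCC, the core that factors of the ETS family, known for their role in endothelial genes, bind on either strand. Vegfa lies at chr17:46032378-46032627, Vegfb at chr19:6987652-6987901 and Tie1 at chr4:118489850-118490099, all on the minus strand.
Vegfa: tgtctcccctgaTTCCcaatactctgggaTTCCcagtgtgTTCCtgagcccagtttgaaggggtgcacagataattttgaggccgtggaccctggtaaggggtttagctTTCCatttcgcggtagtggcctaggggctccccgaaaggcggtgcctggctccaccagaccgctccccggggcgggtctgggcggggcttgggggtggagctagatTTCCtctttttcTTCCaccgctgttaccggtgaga
Vegfb: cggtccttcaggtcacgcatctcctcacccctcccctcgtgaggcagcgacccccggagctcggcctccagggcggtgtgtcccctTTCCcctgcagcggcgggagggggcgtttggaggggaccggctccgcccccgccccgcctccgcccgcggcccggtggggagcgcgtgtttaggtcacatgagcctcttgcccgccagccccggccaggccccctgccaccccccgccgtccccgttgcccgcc
Tie1: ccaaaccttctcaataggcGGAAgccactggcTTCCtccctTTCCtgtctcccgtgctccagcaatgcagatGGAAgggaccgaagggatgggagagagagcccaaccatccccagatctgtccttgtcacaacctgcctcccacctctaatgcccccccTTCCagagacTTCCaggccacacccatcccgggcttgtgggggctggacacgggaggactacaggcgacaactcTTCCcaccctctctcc

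Such a core was found 4 times in Kdr, 2 times in Tek, 7 times in Tie1, 4 times in Flt1, 6 times in Vegfa at its first start and 1 time in Vegfb. It is a short string, found at least once in 93.4% of 32851 RefSeq promoter stretches of the same length with a median of 3, so these counts set the genes apart little; 4 or more occurred in 33.4%. A GC box, GGGCGG or CCGCCC, was found 2 times in Kdr, 3 times in Flt1, 2 times in Vegfa at its first start and 4 times in Vegfb, and 0 times in Tek and Tie1, while 32.7% of all stretches held it. The core bound by hypoxia-inducible factors, ACGTG or CACGT, was found 1 time at a second annotated Vegfa start, inside the gene, and 0 times in the other 6 stretches (16.6% of all stretches held it). No base lay in more than 1 of these motifs. The promoters of Pecam1, Cdh5, Vwf and Aplnr were not analysed here.

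Other genes of the vessel wall and of Vegf signalling were counted from 9 lists holding 157 measured genes. Of these, 0 passed the adjusted threshold and 5 (3.18%) had an unadjusted p under 0.05, beside 4.54% of all genes. In all 5 the HMB mean was lower. Over all genes, 2.19% had such a p with a lower mean and 2.35% with a higher one. The median difference over the 157 genes was -0.04, beside 0.01 over all genes. Since no gene passed, the values that follow are given as measured and not as changes.

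In the list of endothelial junction and surface genes the HMB mean was lower for 17 of 22 measured genes, beside 48.3% of all genes. The list had a median difference of -0.14 and 0 genes at unadjusted p under 0.05. Its genes of smallest p were Mmrn2, an endothelial matrix protein (8.96 ± 0.18 in HMB and 9.23 ± 0.29 in control), and Icam2, an adhesion molecule of endothelium and leukocytes (7.54 ± 0.81 in HMB and 8.23 ± 0.69 in control). Icam2 was highest in control 7, at 9.72. Both lay below the background percentile on all arrays. Of the 17 lower genes, Cd34, Emcn, Ecscr and S1pr1 differed by -0.05 to -0.01. Median centring per array moved the median difference over all genes further than that, from 0.01 to 0.08.

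Of 21 endothelial transcription factors, 11 were lower by mean in HMB muscle, and the median difference was -0.03. Klf2, the factor that laminar blood flow induces in endothelium, had the smallest p of all 157 genes, at 7.87 ± 0.72 in HMB muscle and 8.85 ± 0.53 in control muscle, a difference of -0.97 (unadjusted p = 0.0074, adjusted p = 0.99 by limma). It lay below background on all arrays. Nr2f2, the factor of venous identity, was at 12.55 ± 0.28 in HMB and 12.78 ± 0.22 in control and above background on all 14.

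Of 16 genes of capillary lipid and gas handling, 8 had a lower mean in HMB muscle and the median difference was -0.01. Plvap, the protein of the diaphragms of endothelial pores, was at 9.06 ± 0.50 in HMB and 9.63 ± 0.46 in control (difference -0.57, unadjusted p = 0.034, adjusted p = 0.99 by limma), and Cav2, a caveolar coat protein, at 8.54 ± 0.42 in HMB and 8.99 ± 0.42 in control. Both stayed below background. In the list of artery and vein genes, 13 of 20 had a lower mean and 16 were never above background. Its leading genes Sele, the adhesion molecule of inflamed endothelium (2.66 ± 0.43 in HMB and 3.10 ± 0.40 in control), and Notch4 (4.61 ± 0.74 in HMB and 5.17 ± 0.81 in control) were among these.

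The list of other Vegf ligands and receptors, 10 in all, also takes in semaphorins (Sema3a, Sema3c, Sema3e and Sema3f) and the semaphorin receptor Plxnd1. For 7 of the 10 the HMB mean lay below the control mean. Apart from the semaphorins and Plxnd1, it lay below for Vegfc, Flt4 and Nrp2 and above for Vegfd and Pgf. Plxnd1, a semaphorin receptor that restrains vessel growth, was at 9.99 ± 0.37 in HMB muscle and 10.51 ± 0.22 in control muscle, a difference of -0.52 (unadjusted p = 0.0079, adjusted p = 0.99 by limma), and above background on 1 array. Vegfd, a ligand of lymphatic growth, was at 9.62 ± 0.60 in HMB and 9.19 ± 0.53 in control, and its HMB maximum of 10.91 was again HMB 4. Of 9 angiopoietin and apelin partners, 7 had a higher mean in HMB muscle. The smallest p there was that of Apln, the ligand of Aplnr, at 4.41 ± 0.46 in HMB and 5.09 ± 0.67 in control (difference -0.68, unadjusted p = 0.031), which is below the array medians, and the next was Ccbe1, a processing factor of lymphatic growth, at 7.43 ± 0.83 in HMB and 6.83 ± 1.01 in control.

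In the list of Vegf regulators, 14 of 21 genes had a higher mean in HMB muscle, with a median difference of 0.08 and 0 at unadjusted p. The list mixes regulators of Vegfa expression with proteins outside the cell. Sparc, a matrix protein that binds growth factors, was at 15.63 ± 0.42 in HMB and 16.10 ± 0.44 in control, and Adamts1, a protease that releases or traps Vegf, at 11.43 ± 0.46 in HMB and 11.10 ± 0.53 in control. Among 26 hypoxia targets, 15 had a higher mean, with a median of 0.05. Pfkfb4, a glycolytic regulator, was at 8.74 ± 0.66 in HMB and 9.59 ± 0.80 in control (difference -0.85, unadjusted p = 0.033), and P4ha2, a collagen prolyl hydroxylase, at 11.13 ± 0.19 in HMB and 10.85 ± 0.37 in control. Downstream of Vegf, 11 of 16 response genes had a lower mean, 14 of them were never above background, and Spry4 and Dusp5, feedback inhibitors of the MAP kinase pathway, led with 7.66 ± 0.63 and 6.20 ± 0.81 in HMB against 8.17 ± 0.51 and 6.86 ± 0.76 in control.

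Around the endothelium, the HMB mean was lower for all 13 basement membrane genes, beside 48.3% of all genes, with a median difference of -0.24. The difference was smallest for Nid1 (-0.006) and Lamb2 (-0.09). Median centring per array moved the median difference over all genes from 0.01 to 0.08, further than the Nid1 difference lay from 0. The count of 13 thus depends on the scaling of the arrays. Of the 13 genes, 3 (23.1%, beside 4.54% of all genes) had an unadjusted p under 0.05 and 0 an adjusted one. In lists this short the share moves with single genes, and it was 20% for epidermis (2 of 10) and 14.3% for platelets (1 of 7). The count was 0 for lymphatic, erythroid, fibroblast, B and T cell, macrophage, adipocyte, slow fibre, fast fibre, skeletal muscle and tumour epithelium genes. Hspg2, perlecan, was at 11.39 ± 0.24 in HMB muscle and 11.81 ± 0.18 in control muscle, a difference of -0.41 (unadjusted p = 0.0073), and above background on all 14 arrays. Col4a2, a chain of collagen IV, was at 8.66 ± 0.30 in HMB and 9.32 ± 0.34 in control (difference -0.67, unadjusted p = 0.0018). Col15a1 was at 7.88 ± 0.65 in HMB and 8.80 ± 0.58 in control (difference -0.92, unadjusted p = 0.0092). Col4a2 and Col15a1 lay below background on all arrays, and 7 of the 13 basement membrane genes were never above it. Fibroblasts and muscle fibres make these genes too, and 13 of 17 fibroblast and matrix genes also had a lower mean; the part of each cell type was not tested. The basement membrane mean ran from 9.32 to 9.82 in HMB muscle and from 9.58 to 10.50 in control muscle, with control 3 highest.

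Of 17 pericyte and smooth muscle genes, 9 had a higher mean in HMB muscle and 3 (17.6%, beside 4.54% of all genes) an unadjusted p under 0.05, of which 1 was higher and 2 lower. Acta2, smooth muscle actin, was at 14.003 ± 0.305 in HMB muscle and 14.382 ± 0.073 in control muscle (difference -0.38, unadjusted p = 0.014), and Myh11, smooth muscle myosin, at 10.002 ± 0.411 in HMB and 10.495 ± 0.237 in control (difference -0.49, unadjusted p = 0.016). Notch3, the Notch receptor of mural cells, was at 8.04 ± 0.16 in HMB and 7.71 ± 0.29 in control (difference 0.33, unadjusted p = 0.036). Acta2 was above background on all 14 arrays, Myh11 on 1 and Notch3 on 0. Lymphatic endothelium split evenly, with 5 of 10 genes higher in mean, and Lyve1, its hyaluronan receptor, which macrophages also carry, was at 10.29 ± 0.51 in HMB and 9.90 ± 0.28 in control, while Pdpn, podoplanin, was at 8.24 ± 0.34 in HMB and 8.55 ± 0.27 in control. All 7 platelet genes measured and all 3 erythroid genes stayed below background on every array.

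**Figure D5:**
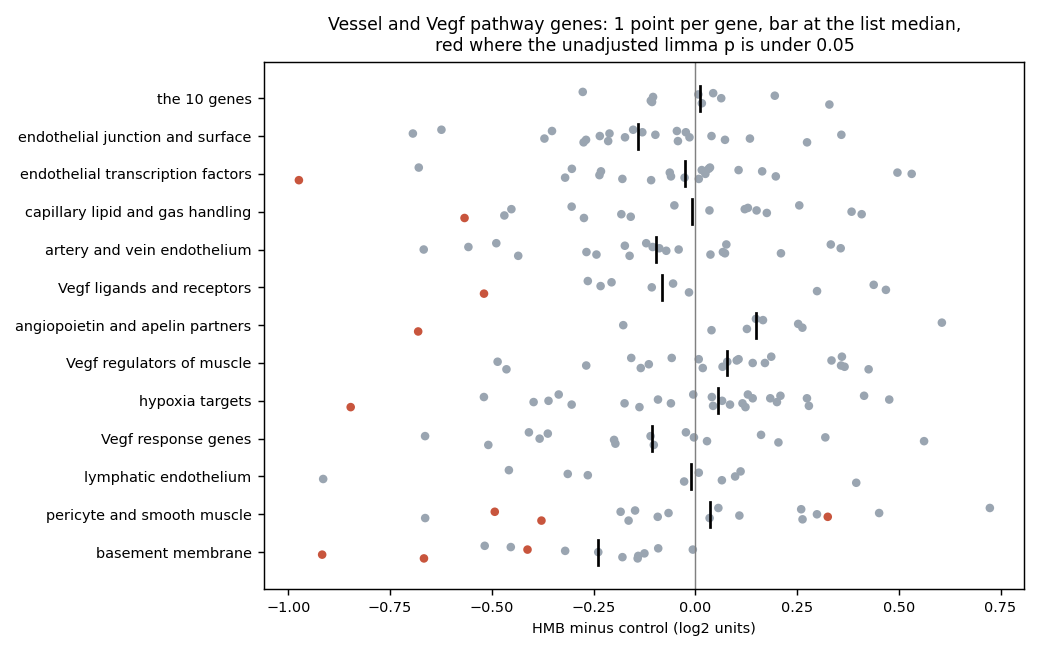
HMB minus control (log2 units, horizontal axis) for every measured gene of the vessel and neighbouring lists, 1 point per gene, with a bar at each list's median and red where the unadjusted p was under 0.05. Basement membrane is the list whose 13 points all lie below 0 (median -0.24), Nid1 only just (-0.006). The 10 endothelial and Vegf genes lie on both sides of 0 (median 0.01).

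Last, all other genes were ranked by their correlation over the 14 arrays, with group means taken out, with the mean of the 8 endothelial genes, with Vegfa and with Vegfb, as a description. The 8 most like the endothelial mean were Angptl1, an angiopoietin-like secreted protein (r = 0.870), Spred2, an inhibitor of MAP kinase signalling (0.861), Bpnt1, C1ql3, Septin4, Kcnj2, Bhlhe40 and H4bc24 (0.828 to 0.837). The median r with it was 0.325 for capillary genes, 0.263 for junction and surface genes, 0.188 for endothelial transcription factors, -0.021 for lymphatic genes and -0.091 for artery and vein genes, beside -0.003 for all genes. Lists of other cells reached like values, with 0.261 for slow fibre genes and 0.245 for adipocyte genes. Nearest to Vegfa stood Hccs, which attaches haem to cytochrome c (r = 0.908), Rnf128, a ubiquitin ligase (0.904), Tmem210, Arhgap5, Stoml2, Ripk4, Calhm5 and Bzw2 (0.836 to 0.892). Nearest to Vegfb stood Ppif, the mitochondrial cyclophilin (r = 0.888), Tpd52l1, Mast2, Slc25a3, the mitochondrial phosphate carrier (0.865), Pde7b, Ccdc169, Pgpep1 and 1700028J19Rik. Several of the genes named here lay below the background percentile by mean level, Angptl1 at 9.32 and Rnf128 at 9.80 among them. The dimmest were Tmem210 at 3.21, 1700028J19Rik at 3.47, Ripk4 at 3.70 and Ccdc169 at 3.79. Arrays share normalisation and tissue makeup, and the highest of so many correlations over 14 arrays are high by selection.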

How the data were processed

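RNA of gastrocnemius from 7 HMB and 7 control mice was hybridised to Affymetrix Clariom S mouse arrays, 1 array per titled sample. The deposited table, which the authors made, holds 1 summarised value per probeset and array, read here as log2 intensities. The log2 scale was inferred from the values. Background correction, summarisation and normalisation: not given in the sources used here. Differences are therefore printed in log2 units without folds. Of 28846 probesets, 22206 measured genes and 5222 were intron controls, whose 95th percentile served as background. The 19572 gene probesets with 1 symbol in the platform annotation were kept, 2634 without a symbol were not, and probesets of the same gene were averaged (55 genes), giving 19505 genes. Each of the 10 genes described had 1 probeset. No filter on dim genes was applied. Precision is limited by the number of arrays.

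Groups were taken from the sample titles. HMB and control were compared with limma 3.58.1 in R 4.3.3 (lmFit and eBayes, two-sided, no covariate), with Benjamini-Hochberg adjustment over all genes and a threshold of 0.05. The fit was tested on simulated data first. Correlations were tested two-sided by permutation in Python 3.11.15 with scipy 1.17.1 (100000 resamples over 14 arrays, exact enumeration within groups of 7), adjusted over the 45 pairs. The genes, lists and tests were chosen with earlier results of these data known. Besides the 10 genes, the text names from each list described the 2 genes of smallest unadjusted p, Notch3 and Col15a1, whose unadjusted p was also under 0.05, and the 8 genes most like each of 3 profiles. Of the list markers, Acta1 was named as a check of the tissue. Lists of B and T cells, fibroblasts, platelets, erythroid cells, slow and fast fibres and skeletal muscle are given by counts or means. Other lists computed alongside were those of macrophages, adipocytes, epidermis and tumour epithelium. Promoter stretches were read from RefSeq (GRCm38.p6) for 6 of the 10 genes, and motifs were searched on both strands.

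Other settings tried were quantile normalisation anew, median centring per array, 2 filters on dim genes, the brightest probeset, inclusion of probesets without a symbol, a trended robust variance prior, array weights, a block for the replicate number, the methods' t-test, a slow fibre covariate, omission of single arrays and omission of control 7 with HMB 4.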

Additional observations from a re-analysis of the deposited data

Results flagged for a closer look

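Within each group of 7 arrays, the gap between the outermost value and its neighbour was set against the whole range of the group by Dixon's criterion, for 86 groups of values. Of these, 12 stood apart, where chance alone gives about 1 in 20 for independent, normally distributed groups. The 86 groups reuse the same 14 arrays and some share genes, so the 12 are not independent. Whether they exceed chance was not tested. Among the 10 endothelial and Vegf genes, 3 of 20 groups stood apart. Control 2 was the low array for Kdr, the Vegfa receptor, at 10.75 (next lowest control 12.29), for Cdh5 at 12.67 (next 13.22), and for the mean of the 8 endothelial genes at 10.52 (next 11.09). The fast fibre mean of control 2 was 17.45, also below the other controls. Control 7 was the high array for Pecam1 at 13.31 (next highest control 12.54), for Icam2, which leukocytes also carry, at 9.72 (next 8.33), and for the mean of the B and T cell genes at 10.53. It was the low array for P4ha2 at 10.07. HMB 4 was highest of its group for Vegfd at 10.91 and lowest for the skeletal muscle mean at 16.33. HMB 6 was lowest for Col4a2 at 8.04, and control 3 was highest for the fibroblast and matrix mean at 12.38.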

How the results depend on the processing

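No alternative brought any of the 10 genes past the adjusted threshold (smallest adjusted p by limma 0.91, for Kdr and Cdh5 without control 2). Of 257 alternative values for the 10 genes, 231 kept their direction and 26 turned it. Without control 7 and HMB 4 the differences of Pecam1, Kdr, Flt1 and Aplnr turned, to 0.016, 0.034, -0.082 and 0.090. That of Vegfa turned to -0.0099 with quantile normalisation and to -0.0030 with the slow fibre covariate. Leaving out 1 array at a time gave -0.17 to 0.036 for Pecam1, -0.39 to 0.0067 for Kdr, -0.017 to 0.16 for Flt1, -0.11 to 0.16 for Tek, -0.013 to 0.12 for Tie1 and -0.042 to 0.11 for Vegfa. Cdh5 (-0.21 without control 2 to -0.067), Vwf (0.24 to 0.44), Aplnr (-0.46 to -0.023) and Vegfb (0.094 without control 7 to 0.29) kept their sign, and the mean of the 8 endothelial genes ran from -0.11 to 0.024. At unadjusted p, 0 to 1 of the 10 genes passed.

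Over the 305 genes of all 23 neighbouring lists, 14 (4.59%, beside 4.54% of all genes) had an unadjusted p under 0.05. Of these, 3 were higher and 11 lower in HMB muscle. The higher count was 5 with quantile normalisation, 6 with median centring, 1 in the brighter portion of all genes (split at the median), 0 among genes above background and 5 without control 7 and HMB 4. The lower count was 7 with median centring, 6 among genes above background and 17 without control 7 and HMB 4. The split at the median left 9753 genes to test and the background filter 5590. Fewer list genes could therefore be counted under these filters. Leaving out 1 array gave 2 to 5 higher and 11 to 19 lower. Over all genes, median centring gave 631 higher and 242 lower at unadjusted p, where the values as deposited gave 458 higher and 427 lower, and moved the median difference to 0.08. The background filter removed Tie1, Vwf and Aplnr.

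Of 45 pairs, 2 passed. With quantile normalisation 1 passed, with median centring 5, without control 7 and HMB 4 4, among HMB arrays 0, among control arrays 1, and leaving out 1 array 0 to 3. The causes of these shifts were not tested. Arrays of equal replicate number did not vary together (r of their deviations from the group means -0.07 to 0.12, and 1 of 7 numbers matched best with itself). With the replicate block, 0 of the 10 genes passed, the Vwf difference was 0.33, and 4 higher and 14 lower list genes had an unadjusted p under 0.05. Tie1, Vwf, Aplnr and many list genes were dim, and dim probesets limit what these arrays can show.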
